A study of Mus musculus with 217 samples.

Results

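The genes of luteinization and steroid synthesis followed here were Star, Cyp11a1, Hsd3b1, Cyp17a1, Lhcgr, Scarb1, Ptgfr, Nr5a1, Sfrp4 and Runx2, taken by their symbols from the granulosa columns of the deposited count table. They are 10 of its 53619 genes, and all 10 had a row. Of these, 9 passed the filter on low counts that left 17558 genes for testing. Cyp17a1 did not pass, with 11 counts in the 18 libraries together.

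Granulosa cells are the somatic cells that line the follicle and nourish the oocyte. After the surge of luteinizing hormone (LH) they stop dividing, take up cholesterol and turn into progesterone-making luteal cells, a change called luteinization. Cholesterol enters through the lipoprotein receptor encoded by Scarb1, is carried into the mitochondrion by the protein of Star, cut to pregnenolone by the enzyme of Cyp11a1 and turned into progesterone by that of Hsd3b1. Cyp17a1, which leads on to androgens, is a gene of the neighbouring theca cells. Lhcgr encodes the LH receptor and Ptgfr the receptor for prostaglandin F2 alpha, the signal that ends the life of the corpus luteum. Nr5a1 encodes a nuclear receptor that drives steroidogenic genes, Runx2 a transcription factor of luteinizing granulosa cells, and Sfrp4 a secreted Wnt-binding protein found in luteal cells.

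Messenger RNA of 18 pools of mouse granulosa cells was sequenced by Smart-seq2, which amplifies full-length cDNA from few cells. The 6 groups of 3 pools came from 10-month-old (old) Tet2 knockout mice given resveratrol, old Tet2 knockout control mice, 2-month-old (young) Tet2 knockout mice, old wild-type mice given resveratrol, old wild-type control mice and young wild-type mice. Resveratrol, a plant polyphenol, was in the drinking water at 30 mg per L, and control water held its solvent DMSO. All groups had a C57BL6/129 background, and all mice received 5 IU of pregnant mare serum gonadotropin 46 h before visible follicles were punctured, with no LH-like hormone (hCG) named for the granulosa cells. The enzyme of Tet2 oxidises methylated cytosines in DNA. The labels do not give the part of Tet2 that was removed, the cells it was removed from or the number of mice behind a pool, so p-values measure the spread between these pools, which may be technical.

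Several features of the whole set bear on the values. Of the 6 young libraries 5 were shallow, with 470647 to 749172 counts, whereas young knockout-labelled replicate 2 held 11595710 and the 12 old libraries held 5995491 to 20537935. On the first principal component (34.1% of the variance) the 5 shallow libraries lay between -152 and -109 and the others between 31.0 and 78.4. Tet2 itself had no lower mean in knockout-labelled pools, with group means of 14.9, 15.7 and 11.8 CPM (reads scaled to a common library total, with TMM factors) in old resveratrol, old control and young pools, against 14.6, 11.6 and 8.09 CPM in the wild-type pools of the same kinds. The log2 differences were 0.03, 0.43 and 0.55, with adjusted p-values of 0.991, 0.479 and 0.697, so the pools are called knockout-labelled throughout. Granulosa markers differed in level. Without TMM factors, Inha (inhibin alpha) had group means of 872 to 2625 CPM and Fshr (the FSH receptor) 9.45 to 20.6 CPM. Other listed granulosa markers were low, with Foxl2 at 3.23 to 8.996 CPM and Esr2 at 2.96 to 10.2 CPM. Cyp19a1 had 2.88 to 8.97 CPM and Amh 0.0762 to 4.17 CPM, on the same scale.

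The stretches just upstream of Ptgfr, Lhcgr and Hsd3b1 are printed here from RefSeq promoter sequences (GRCm38.p6, minus strand of the chromosome, 5′ to 3′, without annotated exons). Each of these genes passed the test threshold in some comparison below, Lhcgr in only 1 of 7. Both strands were searched for AGGTCA, the core letters recognised by Nr5a1 and other nuclear receptors, for TGTGGT, the core recognised by Runx factors, and for TGACGTCA, the cyclic AMP response element. These motifs do not overlap one another, and capitals mark the matches.
Ptgfr, chr3:151837631-151837778: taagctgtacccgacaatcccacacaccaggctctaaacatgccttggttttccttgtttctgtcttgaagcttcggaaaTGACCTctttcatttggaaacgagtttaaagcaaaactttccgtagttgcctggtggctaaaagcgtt
Lhcgr, chr17:88792015-88792264: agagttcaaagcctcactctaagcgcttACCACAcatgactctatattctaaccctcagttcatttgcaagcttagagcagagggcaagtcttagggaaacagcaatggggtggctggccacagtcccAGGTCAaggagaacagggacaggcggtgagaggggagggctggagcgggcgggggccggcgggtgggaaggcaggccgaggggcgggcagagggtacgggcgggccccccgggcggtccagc
Hsd3b1, chr3:98859795-98860044: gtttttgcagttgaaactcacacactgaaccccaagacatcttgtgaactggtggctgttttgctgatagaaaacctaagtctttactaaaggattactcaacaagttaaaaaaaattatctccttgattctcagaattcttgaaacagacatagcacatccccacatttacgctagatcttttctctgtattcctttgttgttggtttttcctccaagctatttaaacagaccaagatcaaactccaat
Ptgfr has the reverse complement of AGGTCA at position -170 from its RefSeq start. Lhcgr has AGGTCA at position -122 and the reverse complement of TGTGGT at position -222. None of the 3 motifs stands in the Hsd3b1 stretch. Among 32851 promoters cut to the same 250 bases, 14.0% hold AGGTCA, 14.0% hold TGTGGT and 1.55% hold TGACGTCA, and a match describes only the letters. By the GENCODE annotation of GRCm38, Ptgfr lies on chromosome 3 from 151796502 to 151837630, Hsd3b1 on chromosome 3 from 98852194 to 98859794 and Lhcgr on chromosome 17 from 88716481 to 88791990, all on the minus strand. Scarb1 lies on chromosome 5 from 125277087 to 125341094 (minus), Cyp11a1 on chromosome 9 from 58006411 to 58027023 (plus) and Star on chromosome 8 from 25806555 to 25815982 (plus). Nr5a1 lies on chromosome 2 from 38692656 to 38714542 (minus), Runx2 on chromosome 17 from 44495987 to 44814797 (minus), Sfrp4 on chromosome 13 from 19623104 to 19632994 (plus) and Cyp17a1 on chromosome 19 from 46667165 to 46673172 (minus). All values below count reads over the exons of the whole gene.

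Per length, the enzymes of progesterone synthesis stood highest. In CPM per kb of exon, here without TMM factors and averaged over the 18 libraries, Hsd3b1 had 1078, Cyp11a1 732 and Sfrp4 448. Star followed with 116, Scarb1 with 82.2, Runx2 with 20.9, Nr5a1 with 12.5, Ptgfr with 3.301, Lhcgr with 2.22 and Cyp17a1 with 0.0152. Over all libraries, Sfrp4 and Star were the highest-placed neighbours whose libraries did not overlap. The order changed with the group in a few places. Scarb1 was above Star per kb in young wild-type pools (133 against 65.0 CPM per kb, with no overlap), whereas the mean of Star was the higher one in the other 5 groups. Ptgfr was below Lhcgr only in old knockout-labelled control pools (0.704 against 1.68 CPM per kb, with no overlap). Reads of Hsd3b1 made up 98.0% of all reads of the Hsd3b family, and those of Hsd3b7 made up 1.72%. Some other members are close copies of Hsd3b1, so their small shares, at most 0.184% (Hsd3b6), are uncertain.

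**Figure D1:**
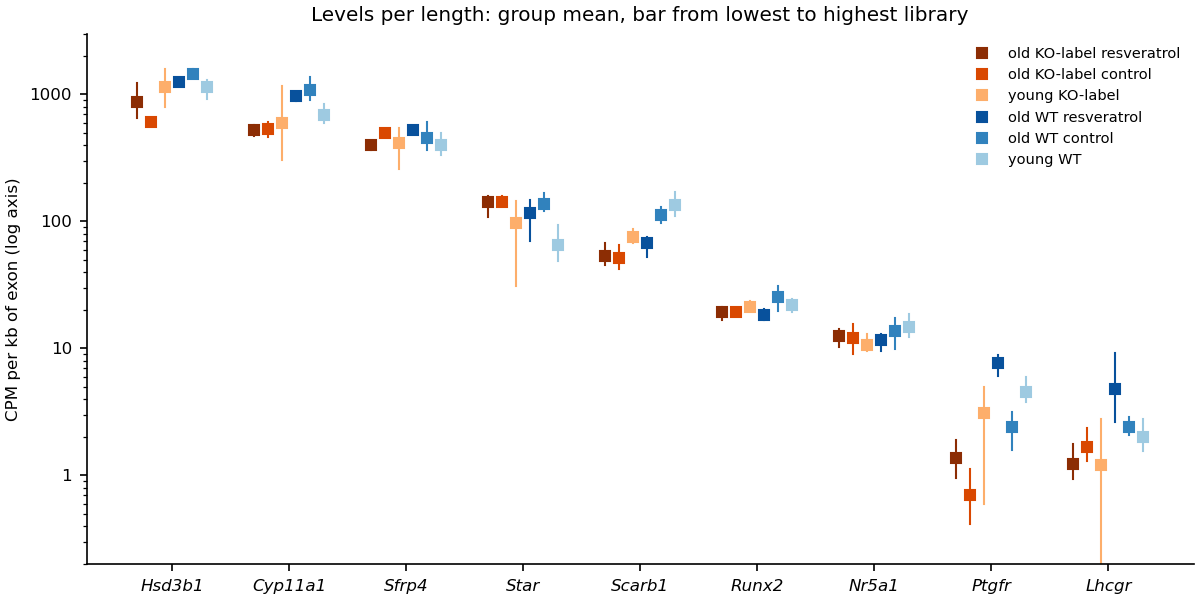
Levels of 9 genes in CPM per kb of exon (without TMM factors, log axis) in the 6 granulosa groups. Squares mark the mean of 3 libraries and bars run from the lowest to the highest library. The genes run from Hsd3b1, at 1078 over all libraries, to Lhcgr, at 2.22, and the Lhcgr bar of young knockout-labelled pools runs off the axis because 1 library had no count.

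Among the 9 tested genes, each comparison moved between 0 and 3 past the threshold, an adjusted p under 0.05 in edgeR's quasi-likelihood test with Benjamini-Hochberg adjustment over all 17558 genes. In old knockout-labelled against old wild-type control pools 3 of 9 fell (Hsd3b1, Scarb1 and Ptgfr) and none rose, where 3.86% of all genes tested changed and 1.03% fell. Among old resveratrol pools 2 of 9 fell with the knockout label (Lhcgr and Ptgfr), where 1.07% of all genes changed and 0.427% fell. Old control against young knockout-labelled pools gave 2 of 9 lower (Hsd3b1 and Ptgfr), where 5.17% of all genes changed and 1.08% fell.

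Resveratrol raised 1 of 9 in old wild-type pools (Ptgfr), where 1.62% of all genes changed and 1.17% rose. In old knockout-labelled pools resveratrol moved 0 of 9 past the threshold (0 by DESeq2, 2 at an unadjusted p under 0.05), where 0.0285% of all genes passed. Old control against young wild-type pools gave 0 of 9 (0 by DESeq2, 2 at an unadjusted p under 0.05), where 1.53% of all genes passed. The knockout label among young pools gave 0 of 9 (1 by DESeq2, Scarb1, and 1 at an unadjusted p under 0.05), where 0.114% of all genes passed. Whether age or resveratrol acted differently under the 2 genotype labels was tested as an interaction, and 0 of 9 passed for either, at 0.137% of all genes for age and 0.159% for resveratrol. DESeq2 also gave 0 for both, and 1 and 2 of the 9 had an unadjusted p under 0.05.

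Counts of genes whose libraries do not overlap were read against the same count over all genes. With the knockout label, 4 of 9 lay wholly below in old control pools, where 11.1% of all genes tested did, and 4 of 9 in old resveratrol pools, where 8.65% did. With age in wild-type pools 3 of 9 lay wholly above and 1 wholly below, where 23.8% and 8.01% of all genes did. The median log2 change of the 9 genes was -0.32 with the knockout label in old control pools and -0.43 in old resveratrol pools, beside 0.06 and 0.03 over all genes tested. It was -0.20 in young pools, beside 0.12, and between -0.03 and 0.15 for age and resveratrol, beside 0.01 to 0.17. Comparisons that share a group of pools, such as old wild-type resveratrol, are not independent of each other.

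**Figure D2:**
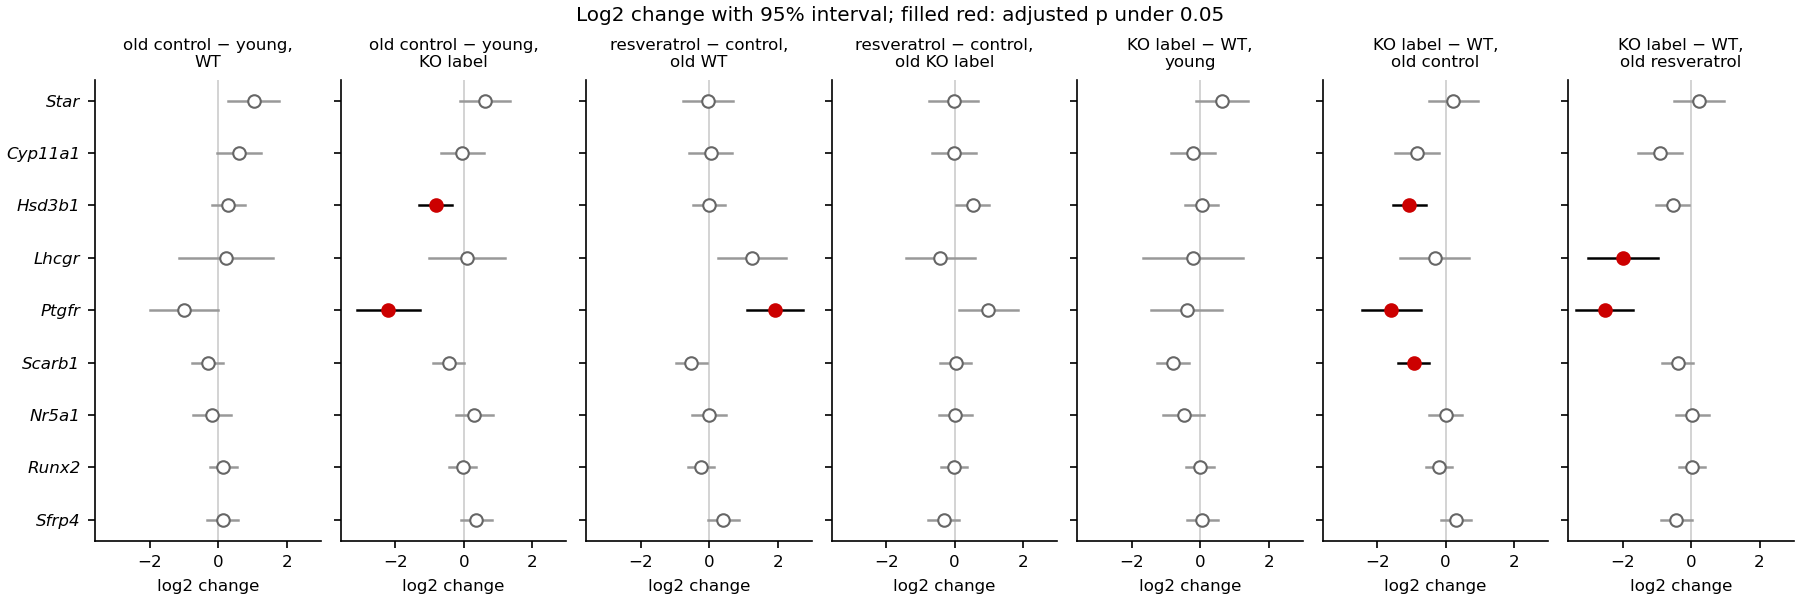
Fitted log2 change of 9 genes in 7 comparisons with its 95% interval, as circles and bars, filled red where the adjusted p was under 0.05. The 8 filled circles are 4 of Ptgfr, 2 of Hsd3b1, 1 of Scarb1 and 1 of Lhcgr, and 7 of them lie left of 0.

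Ptgfr varied most among the groups. Its levels were 14.4, 6.43 and 8.37 CPM in old knockout-labelled resveratrol pools, 7.85, 4.08 and 2.99 CPM in old knockout-labelled control pools and 4.13, 31.3 and 24.6 CPM in young knockout-labelled pools. In wild-type pools they were 65.6, 59.99 and 43.4 CPM in old resveratrol, 20.03, 9.71 and 15.3 CPM in old control and 39.5, 24.3 and 24.6 CPM in young ones. Old wild-type resveratrol pools were thus above all 15 others. Below them the group means ran from young wild type over young knockout label, old wild-type control and old knockout-labelled resveratrol to old knockout-labelled control, and each of these groups overlapped the next. The shallow young libraries hold only 3 to 26 reads of Ptgfr, so their levels are coarse.

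Ptgfr fell with the knockout label in both old settings. Among resveratrol pools the log2 change was -2.53 (SE 0.41, adjusted p = 0.00125, lower in 3 of 3), which held in all 6 fits that left out 1 of the compared pools (-2.92 to -2.30, adjusted p from 0.00129 to 0.0183) and in the 6 other alternatives. Among control pools it was -1.59 (SE 0.42, adjusted p = 0.0320), with 3 of 3 knockout-labelled pools below the wild-type ones. This call was lost without wild-type replicate 1 (-1.35, adjusted p = 0.172) or 3 (-1.58, adjusted p = 0.0816), without knockout-labelled replicate 2 (-1.54, adjusted p = 0.132) or 3 (-1.37, adjusted p = 0.0704), and at one depth for all libraries (-1.25, adjusted p = 0.395). In young pools the log2 difference was -0.39 (95% interval -1.43 to 0.64, adjusted p = 0.7998).

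Resveratrol raised Ptgfr 3.797-fold in old wild-type pools (log2 1.93, SE 0.40, adjusted p = 0.0238, higher in 3 of 3). The call was lost on leaving out any 1 of the 6 pools, at log2 1.68 to 2.17 and adjusted p from 0.0518 to 0.168, and at one depth (1.73, adjusted p = 0.142). In old knockout-labelled pools the log2 change was 0.99 (95% interval 0.13 to 1.84, adjusted p = 1), and the groups overlapped. The difference between these changes was -0.94 (interval -2.11 to 0.24, adjusted p = 0.716), so a different response was not shown.

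With age Ptgfr fell in knockout-labelled pools by 2.21 on the log2 scale (SE 0.44, adjusted p = 0.00518), although the groups overlapped because young replicate 1 held 3 reads. Without young replicate 2, the 1 deep young library, the change was -1.55 (adjusted p = 0.130), and at one depth for all libraries it was -1.72 (adjusted p = 0.140). Without the 5 shallow libraries it was -2.76, but that fit sets 3 old pools against 1 young library, whose group has no spread of its own. In wild-type pools Ptgfr was lower in 3 of 3 old control pools (log2 -1.01, SE 0.48, adjusted p = 0.303), which did not pass. A transcript model on the opposite strand, Gm43618, shares 329 exon bases with Ptgfr, and the use of strand in counting is not stated.

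Lhcgr, the LH receptor, was low everywhere and stood out in 1 pool. Its levels were 15.02, 7.76 and 7.13 CPM in old knockout-labelled resveratrol pools, 10.97, 18.9 and 10.5 CPM in old knockout-labelled control pools and 6.89, 19.6 and 0 CPM in young knockout-labelled pools. In wild-type pools they were 76.8, 21.6 and 21.4 CPM in old resveratrol, 14.8, 15.1 and 20.4 CPM in old control and 12.2, 20.2 and 11.4 CPM in young ones. Old wild-type resveratrol replicate 1 was thus far above its own 2 replicates and every other library. The library without a read, young knockout-labelled replicate 3, allows up to 4.15 CPM (3 counts of its total, covering counting error only).

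Among old resveratrol pools Lhcgr fell with the knockout label by 2.00 on the log2 scale (SE 0.49, adjusted p = 0.0485, lower in 3 of 3). Without wild-type replicate 1 the change was -1.14 (adjusted p = 0.382), without knockout-labelled replicate 2 it was -1.83 (adjusted p = 0.211) and without replicate 3 -1.80 (adjusted p = 0.298). At one depth it was -1.80 (adjusted p = 0.385) and by DESeq2 -2.01 (adjusted p = 0.107). The resveratrol change in old wild-type pools was 1.25 (SE 0.48, adjusted p = 0.173, higher in 3 of 3), or 0.31 without wild-type resveratrol replicate 1. It was -0.42 in old knockout-labelled pools, and the difference between the changes was -1.67 (interval -3.09 to -0.26, adjusted p = 0.536). The remaining Lhcgr changes lay between -0.32 and 0.22, with intervals from -1.68 to 1.597.

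Scarb1, the receptor that takes cholesterol esters from high-density lipoprotein, fell with the knockout label in old control pools. It had 371.8, 426.8 and 584.9 CPM in old knockout-labelled control pools, against 868, 752 and 1021 CPM in old wild-type control pools. The groups did not overlap (log2 -0.93, SE 0.22, adjusted p = 0.0184). This call was lost without wild-type replicate 1 (adjusted p = 0.0719) or 3 (0.0840) and without knockout-labelled replicate 1 (0.122) or 2 (0.0941), with log2 changes of -0.95 to -0.82 in these fits.

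Young knockout-labelled pools had 762, 534 and 581 CPM of Scarb1, against 1397, 897 and 971 CPM in young wild-type pools. All 3 were below (log2 -0.80, SE 0.22), with an adjusted p of 0.192 in edgeR and 0.0420 in DESeq2. Old resveratrol pools had 454.7, 572.9 and 383.2 CPM under the knockout label, against 488.5, 681.3 and 674.0 CPM in wild type, and these overlapped (log2 -0.39, interval -0.84 to 0.07). In wild-type pools Scarb1 was lower in 3 of 3 with resveratrol (log2 -0.52, SE 0.22, adjusted p = 0.220), and in knockout-labelled pools the change was 0.03 (interval -0.43 to 0.48). The age changes were -0.44 under the knockout label and -0.31 in wild type, with adjusted p-values of 0.285 and 0.515.

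Star, whose protein brings cholesterol to the inner mitochondrial membrane, passed in no comparison, and its largest log2 difference was that of old control and young wild-type pools. It had 463, 466 and 635 CPM in old wild-type control pools, against 194, 367 and 206 CPM in young wild-type pools. All 3 old pools were above (log2 1.03, SE 0.37, adjusted p = 0.159), which did not pass. Under the knockout label the levels were 561, 574 and 694 CPM in old control pools, against 612, 443 and 126 CPM in young pools, where replicate 3 was the lowest of the 18 libraries and the groups overlapped (log2 0.63, interval -0.11 to 1.36). Resveratrol pools had 491, 641 and 658 CPM under the knockout label and 312, 653 and 568 CPM in wild type. The resveratrol change was -0.03 under both labels, with intervals of -0.75 to 0.69.

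Cyp11a1, which cuts the cholesterol side chain, lay lower in all old knockout-labelled pools than in the matching wild-type pools, without passing the threshold. It had 2820, 2768 and 2282 CPM in old knockout-labelled resveratrol pools, against 4651, 5143 and 5115 CPM in old wild-type resveratrol pools. The 2 groups did not overlap (log2 -0.92, SE 0.31, adjusted p = 0.200). Old control pools had 2280, 2683 and 3058 CPM under the knockout label, against 4413, 3972 and 6086 CPM in wild type, again without overlap (log2 -0.85, SE 0.31, adjusted p = 0.133). In a fit on the 12 old libraries alone both passed, at -0.94 (adjusted p = 0.00441) and -0.91 (adjusted p = 0.00265), as they did with no filter on low counts. A noncoding gene, Gm17322, shares 145 exon bases with Cyp11a1 on the same strand.

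The young knockout-labelled pools split for Cyp11a1, with 1613 and 1453 CPM in the shallow replicates 1 and 3 and 5142 CPM in the deep replicate 2, against 3893, 2734 and 2828 CPM in young wild-type pools. Comparisons with this group therefore depend on 1 library. The old control minus young change under the knockout label was -0.04 (SE 0.31, adjusted p = 0.968) and 0.79 without replicate 2 (adjusted p = 0.0163). Without the 5 shallow libraries this change was -1.03, again with replicate 2 alone as the young group. The knockout label change in young pools was -0.20 (adjusted p = 0.842), or -1.06 without replicate 2 (adjusted p = 0.0174). In wild-type pools 3 of 3 old control pools were above the young ones (log2 0.61, SE 0.31, adjusted p = 0.340).

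Hsd3b1, which makes progesterone from pregnenolone, was lowest in old knockout-labelled control pools, at 1224, 1099.8 and 1227 CPM, against 2493, 2268 and 2691 CPM in old wild-type control pools. It was thus lower in 3 of 3 (log2 -1.07, SE 0.23, adjusted p = 0.0106). The call was lost without wild-type replicate 1 (-1.07, adjusted p = 0.0529) or knockout-labelled replicate 2 (-1.08, adjusted p = 0.0576) and held in the 4 other such fits. Young knockout-labelled pools had 2087, 2699 and 1443 CPM, all above the old control pools of that label (log2 -0.81, SE 0.23, adjusted p = 0.0428). That age call held in 1 of 6 fits that left out a pool, the one without young replicate 3 (-1.08, adjusted p = 0.0123), and the others gave -0.88 to -0.59 at adjusted p from 0.0549 to 0.143.

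In wild-type pools the age difference of Hsd3b1 had the opposite sign, with 3 of 3 old control pools above the young ones, which had 2157, 1638 and 2260 CPM (log2 0.30, interval -0.18 to 0.78, adjusted p = 0.548). The difference between the age changes was -1.11 (SE 0.33, unadjusted p = 0.00255, adjusted p = 0.319). Old resveratrol pools had 2537, 1376 and 1202 CPM under the knockout label, against 2507, 2497 and 2432 CPM in wild type (log2 -0.54, SE 0.23, adjusted p = 0.391). Knockout-labelled replicate 1 stood with the wild-type pools, and without it the change was -0.94 (adjusted p = 0.0390). The resveratrol change was 0.53 under the knockout label (interval 0.05 to 1.01, adjusted p = 1), or 0.13 without resveratrol replicate 1, and -0.00342 in wild type (interval -0.48 to 0.47).

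Cyp17a1, the androgen-forming enzyme, had 11 counts in 3 of the 18 libraries, all of old resveratrol pools, with at most 0.569 CPM. The other 15 libraries had no count. The theca marker Insl3 likewise had group means of at most 0.257 CPM (without TMM factors).

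**Figure D3:**
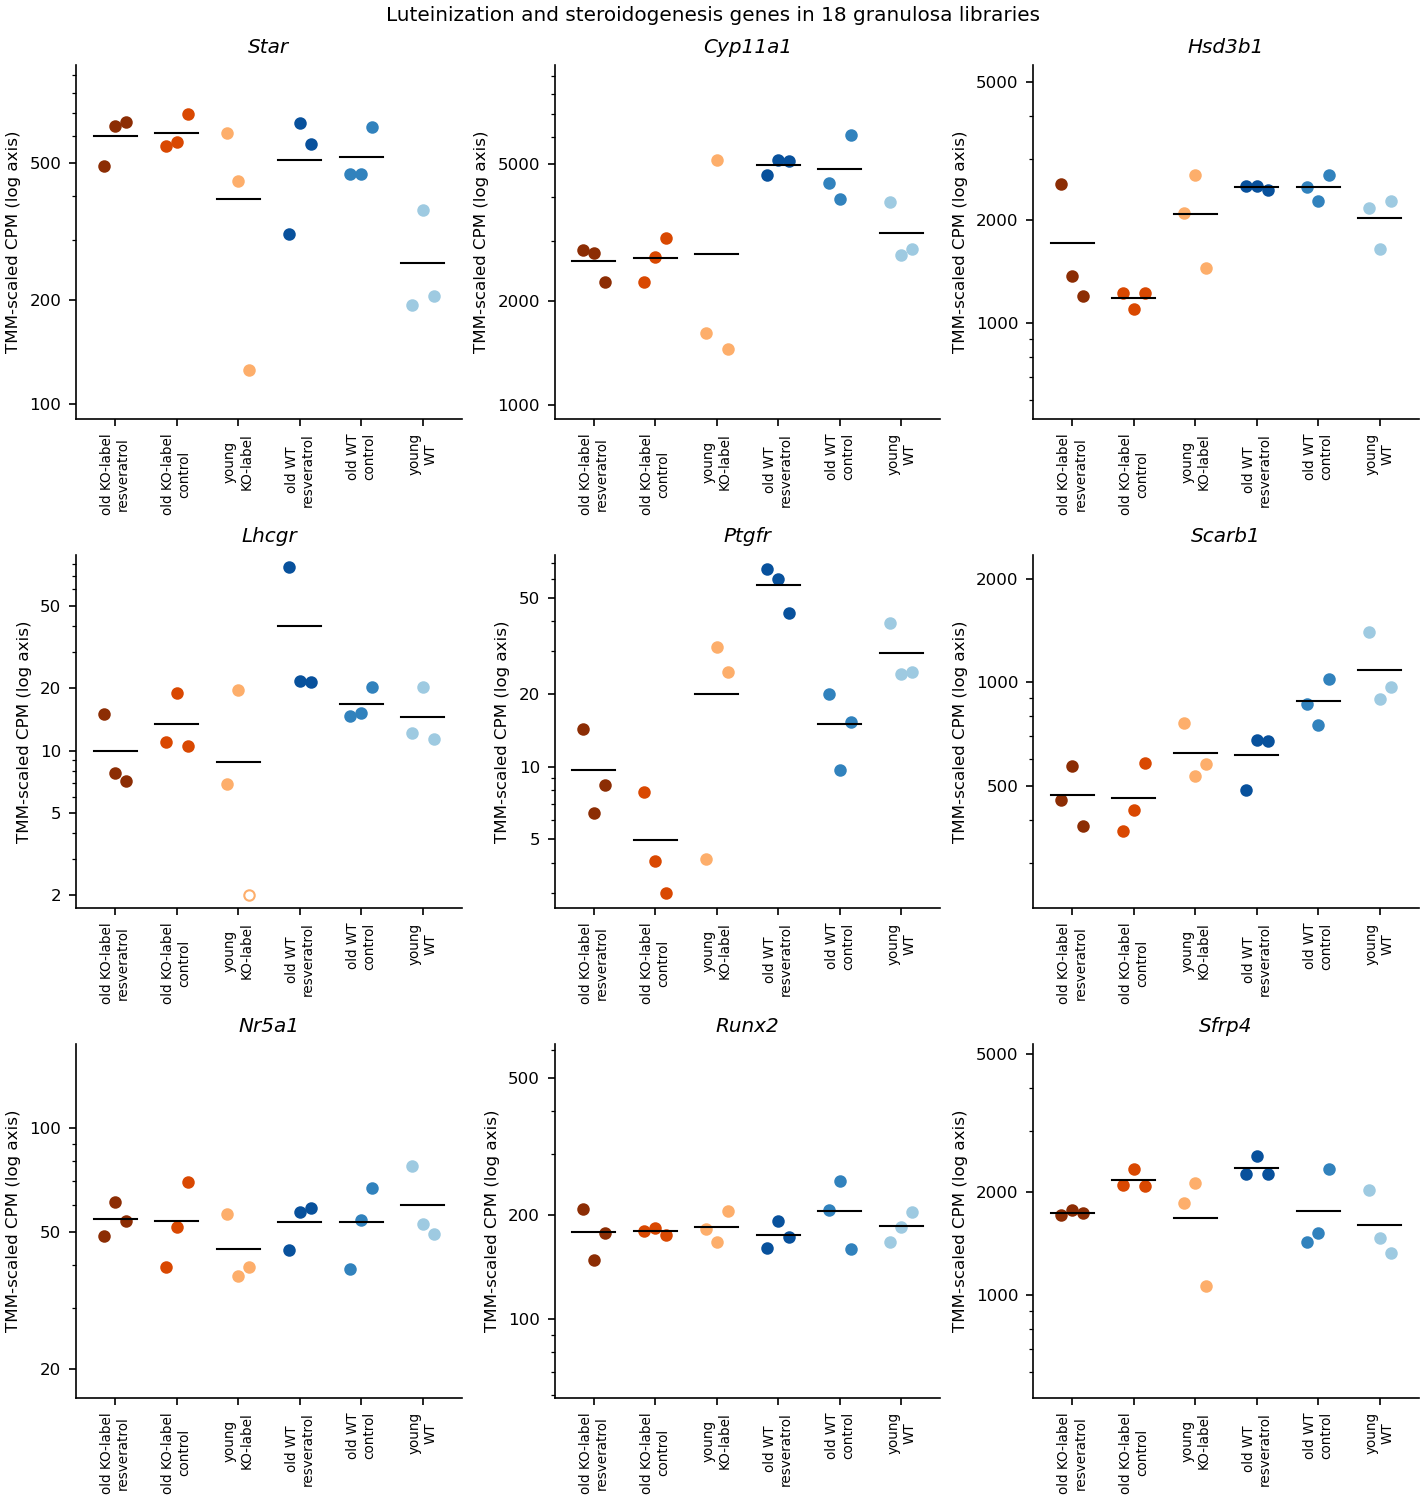
TMM-scaled CPM (log axis) of 9 genes in 18 granulosa libraries, with a point for each library, a line for the mean of the group and an open circle at the bottom for the Lhcgr library with no count. Ptgfr spans 2.99 to 65.6 CPM, whereas Runx2 spans 148 to 250.5 CPM.

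The regulators and Sfrp4 moved least, and none of the 3 passed in any comparison. Nr5a1 ranged from 37.3 to 77.5 CPM over the 18 libraries, with log2 changes of -0.48 to 0.31 in the 7 comparisons and intervals from -1.08 to 0.85. Runx2 ranged from 148 to 250.5 CPM, with changes of -0.23 to 0.15 and intervals from -0.61 to 0.55. An antisense gene, Runx2os1, shares 519 exon bases with Runx2, but it had 525 counts against 34437 of Runx2.

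Sfrp4 averaged 1738 ± 34.1 CPM in old knockout-labelled resveratrol pools, 2165 ± 144 in old knockout-labelled control pools, 1678 ± 546 in young knockout-labelled pools, 2344 ± 167 in old wild-type resveratrol pools, 1755 ± 490.5 in old wild-type control pools and 1605 ± 367 in young wild-type pools (SD, n = 3 each). With resveratrol it was lower in 3 of 3 knockout-labelled pools (log2 -0.32, interval -0.77 to 0.13) and its change in wild-type pools was 0.42 (interval -0.03 to 0.87). The difference between the changes was -0.73 (SE 0.31, unadjusted p = 0.0256, adjusted p = 0.552). Among resveratrol pools Sfrp4 was lower in 3 of 3 with the knockout label (log2 -0.43, SE 0.22, adjusted p = 0.519).

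Other genes of steroid synthesis changed in few places. Of 19 listed, 17 were tested. With the knockout label in old control pools Stard4, a cytosolic cholesterol carrier, rose (log2 1.27, SE 0.26, adjusted p = 0.00659) and Fdxr, the reductase that feeds electrons to the Cyp11a1 enzyme, fell (log2 -0.88, SE 0.23, adjusted p = 0.0341). With age under the knockout label Fdx1, the electron carrier between them, rose (log2 0.74, SE 0.20, adjusted p = 0.0272) and the steroid reductase Srd5a1 fell (log2 -1.67, SE 0.37, adjusted p = 0.00929). With age in wild-type pools Hsd17b7 fell (log2 -1.21, SE 0.30, adjusted p = 0.0406), an enzyme of estradiol and cholesterol synthesis. The list's median changes in these 3 comparisons were 0.10, -0.02 and 0.18, beside 0.06, 0.10 and 0.17 over all genes tested. None passed with resveratrol or among young or resveratrol pools with the knockout label, where 2 to 9 had an unadjusted p under 0.05 and DESeq2 called 2 among resveratrol pools and 0 elsewhere.

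All 16 genes of cholesterol supply were tested. In old control pools 3 rose with the knockout label and none fell, among them Apoe, a lipoprotein component also made by macrophages (log2 2.89, SE 0.77, adjusted p = 0.0344). Of all 17558 genes tested 497 rose there. The list's median was 0.33, beside 0.06 over all genes. With age under the knockout label Lipa, which frees cholesterol in lysosomes, fell (log2 -0.84, SE 0.24, adjusted p = 0.0447). None of the 16 passed in the other 5 comparisons, where 1 to 3 had an unadjusted p under 0.05 and DESeq2 called 2 for age in wild type and 0 elsewhere.

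Of 24 genes of the LH and cyclic AMP response, 22 were tested, and all that passed in edgeR were higher, whereas DESeq2 also called 2 lower with resveratrol in wild type and 1 lower with the knockout label in old control pools. With age under the knockout label 5 rose, among them Timp1, an inhibitor of matrix proteases (log2 0.98, SE 0.17, adjusted p = 0.00168), Parm1 (log2 0.77, SE 0.17, adjusted p = 0.0102) and Nr5a2, a nuclear receptor needed for luteinization in mice (log2 1.33, SE 0.30, adjusted p = 0.0105). Of all 17558 genes tested 719 rose there. The list's median was 0.56, beside 0.10 over all genes. With age in wild-type pools Cdkn1b, a cell-cycle inhibitor, rose (log2 2.77, SE 0.69, adjusted p = 0.0434), and the median was 0.39, beside 0.17.

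With the knockout label in old control pools Areg, an EGF-like factor induced by LH, rose (log2 2.17, SE 0.60, adjusted p = 0.0434), as did Timp1 (log2 0.63, SE 0.17, adjusted p = 0.0361). In old resveratrol pools the transcription factor Runx1 was higher with that label (log2 0.87, SE 0.21, adjusted p = 0.0364). Resveratrol raised Timp1 in old wild type (log2 0.73, SE 0.17, adjusted p = 0.0353). None passed with resveratrol under the knockout label or in young pools, where 0 and 1 had an unadjusted p under 0.05 and DESeq2 called 0. Single genes of the lists, here and below, were not followed through fits with 1 library left out. In those fits the calls over all genes for resveratrol in wild type fell from 285 to between 3 and 80.

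Markers of other cells moved with some of these groups, and their part in the results was not tested. The 17 macrophage and leukocyte markers made up 0.0463% to 0.100% of counts in old knockout-labelled resveratrol pools, 0.141% to 0.177% in old knockout-labelled control pools and 0.00956% to 0.0909% in young knockout-labelled pools. In wild-type pools they made up 0.0278% to 0.0417% in old resveratrol, 0.0175% to 0.0213% in old control and 0.0105% to 0.0132% in young ones. The old knockout-labelled control pools, where Hsd3b1 and Ptgfr were lowest, thus held the largest leukocyte share. In that comparison with wild type 13 of 17 markers rose (9 by DESeq2), where 497 of all 17558 genes tested rose. Those of lowest p were C1qc, Cd52 and Tyrobp (log2 6.94, 1.804 and 4.51). Resveratrol raised 6 of 17 in old wild type (3 by DESeq2), where 1.17% of all genes rose. The 6 were led by Cd68, Tyrobp and Fcer1g (log2 2.29, 3.85 and 2.76), and Ptgfr was highest in these resveratrol pools. Age under the knockout label raised 7 of 17, led by H2-Aa, Cd74 and Cd52 (log2 4.98, 4.72 and 1.63), where 719 of all 17558 genes rose. Among old resveratrol pools H2-Aa and Cd74 were higher with that label (log2 3.61 and 2.58, with 1 call by DESeq2), where 112 of all 17558 genes rose. None of the 17 passed in the other 3 comparisons. There 2 had an unadjusted p under 0.05 for age in wild type (2 calls by DESeq2), 9 for resveratrol under the knockout label (0 by DESeq2) and 7 in young pools (2 by DESeq2). The resveratrol effect itself differed between the labels for 5 of 17, led by Cd68, Tyrobp and C1qc (log2 -3.14, -5.43 and -6.83), where 0.159% of all genes passed. Among young knockout-labelled pools the deep replicate 2, which was high in Cyp11a1, held the 0.0909%.

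Oocyte markers (10 listed) made up 0.00868% and 0.0125% of counts in young knockout-labelled replicates 1 and 3 and 0.00744% to 0.0217% in young wild-type pools, which are the 5 shallow libraries, but at most 0.000467% in every other library. Bmp15 and Oosp1 were called lower with age under both labels, as was Gdf9 (log2 -4.87 under the knockout label and -5.64 in wild type), and the libraries of all 3 overlapped between age groups under the knockout label. Age comparisons therefore carry depth and oocyte transcripts with them, and their part was not tested. Theca and stroma markers (9 listed) were at most 0.00125% and endothelial markers (7 listed) at most 0.00467% in every library, with no call by either tool in any comparison and at most 1 gene per comparison at an unadjusted p under 0.05. The endothelial Emcn and Tek and the oocyte gene Figla had no count in any library. Among 12 granulosa markers Amhr2, a receptor for anti-Müllerian hormone, fell with the knockout label in old control pools (log2 -1.25). With age under that label Amhr2 fell (log2 -1.34) as did Inha (log2 -1.53), while Nr5a2 rose. The 12 markers made up 0.568% and 0.245% of counts in the shallow young knockout-labelled replicates 1 and 3. They made up 0.144% in the deep replicate 2 and 0.134% to 0.162% in old control pools of that label. In wild-type pools they made up 0.198% to 0.247% in young and 0.132% to 0.165% in old control ones. Old resveratrol pools had 0.130% to 0.195% under the knockout label and 0.156% to 0.186% in wild type. The 4 luteal markers made up 0.196% to 0.339% in old knockout-labelled resveratrol pools, 0.204% to 0.291% in old knockout-labelled control pools and 0.0490% to 0.299% in young knockout-labelled pools. In wild-type pools they made up 0.422% to 0.481% in old resveratrol, 0.272% to 0.343% in old control and 0.101% to 0.167% in young ones, most of it from Akr1c18, which inactivates progesterone. Old wild-type resveratrol pools, which were highest in Ptgfr, were also highest in this share. With resveratrol in old wild type the luteal list's median log2 change was -0.23, with 2 of 4 above 0 and 0 past the threshold. In pooled cells, fewer cells of a type and less RNA per cell cannot be told apart.

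**Figure D4:**
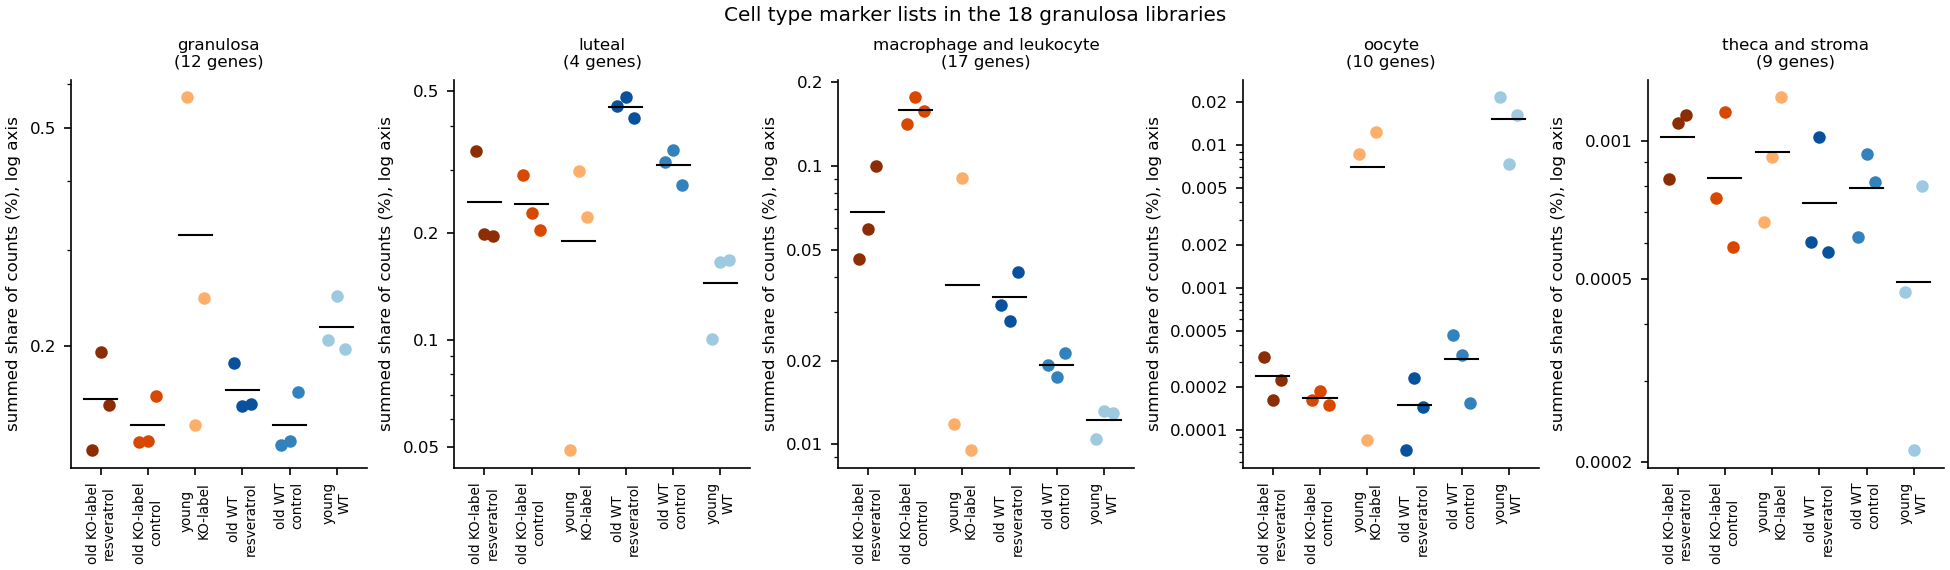
Summed share of counts (percent, log axis) of marker lists of granulosa, luteal, macrophage and leukocyte, oocyte, and theca and stroma cells, with a point for each of the 18 libraries and a line for the group mean. Leukocyte markers are highest in old knockout-labelled control pools (0.141% to 0.177%), and oocyte markers in the 5 shallow young libraries.

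The genes most like each variable member were found by the root mean square difference of their centred log2 group means over the 6 groups. Candidates were 7750 tested genes at a mean of 10 CPM or more, leaving out symbols of gene models, clones, Rik genes and pseudogenes. Ptgfr had no close match among these candidates, the nearest being Maf at 0.50, Gulp1 at 0.51 and H2-T23 at 0.53. Its span between the highest and lowest group was 3.32. Lhcgr was nearest to Hsd11b1 at 0.27, Ssu2 at 0.28 and Mnda at 0.31. Hsd3b1 was nearest to Zfp395 at 0.11, Fam198b at 0.13 and Dnal4 at 0.15. Cyp11a1 was nearest to Rerg at 0.06, Hemk1 at 0.10 and Cav1 at 0.11. Star was nearest to Btg1 at 0.07, Gtf2f2 at 0.07 and Rap1b at 0.08, and Scarb1 to Tug1 at 0.06, Tmem161a at 0.09 and Rbm5 at 0.10. The 6 points share their libraries and depth, so these are descriptions.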

How the data were processed

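The authors deposited raw counts of reads for each gene, as whole numbers. Tools and build named in the submitters' processing notes are HISAT2 2.1.0, featureCounts, mm10 and DESeq2, in roles not stated, and no source used here says whether strand was counted. Libraries were Smart-seq2, read as 150 bp pairs, per the labels' protocols. The labels give 500 cells per pool in one place and 50 in another.

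Groups came from sample titles. Counts of 18 granulosa libraries were tested with edgeR 4.0.16 (R 4.3.3): quasi-likelihood test, TMM factors, filterByExpr at a minimum count of 10, 1 mean per group (12 residual degrees of freedom) and Benjamini-Hochberg adjustment over 17558 genes at 0.05. Intervals are 95%. Depths are 470647 to 20537935 counts, so low genes in shallow young libraries rest on few reads. Alternatives were RLE size factors, no filter, a replicate block, one depth of 470647 counts, the old groups alone, DESeq2 1.42.0, each library left out and, added after the data were seen, no shallow libraries. The fits were tested on simulated data. Same-numbered libraries of different groups deviated with correlations of -0.14 to 0.14, so numbers did not pair them. Symbols unique to GENCODE vM21 (28390) gave exon lengths.

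The genes and lists were chosen with earlier results of these data known. All 10 genes are reported in every comparison, with up to 3 genes past the threshold from each list, by lowest p. Some genes that this rule would name are not reported here. Fshr, Foxl2, Esr2, Cyp19a1, Amh, Hsd3b6, Hsd3b7, Insl3, Akr1c18, Emcn, Tek and Figla, and Inha as a level, were named after their values were seen. Every granulosa and oocyte column of this table was used, and a separate table of C57BL6 oocytes was not.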

Additional observations from a re-analysis of the deposited data

Results flagged for a closer look

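The age change of Hsd3b1 had opposite signs under the 2 genotype labels, without overlap of libraries in either, but the wild-type interval included 0. Under the knockout label 3 of 3 old control pools were below the young pools (log2 -0.81). In wild type 3 of 3 old control pools were above the young pools (log2 0.30, interval -0.18 to 0.78, edgeR adjusted p = 0.548). In that wild-type comparison 23.8% of all genes tested lay wholly above. The difference between the changes was -1.11 (SE 0.33), and its interaction test did not pass after adjustment (edgeR adjusted p = 0.319, or 0.00403 with no filter on low counts). Only 1 of the 6 young libraries, knockout-labelled replicate 2, was deep. Without the 5 shallow ones Hsd3b1 fell by 1.28 under the knockout label. That fit has 1 young library, whose group has no spread of its own, and none of young wild type.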

How the results depend on the processing

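The counts of the 9 genes past the threshold moved as follows. With no filter on low counts they were 2 instead of 0 for age in wild type (Star and Cyp11a1), 2 instead of 1 for resveratrol in wild type (Lhcgr added), 1 instead of 0 for the knockout label in young pools (Scarb1), and 1 instead of 0 for each interaction (Hsd3b1 for age, Lhcgr for resveratrol). With no filter, and in old groups only, Cyp11a1 also passed for the knockout label, giving 4 instead of 3 in old control and 3 instead of 2 in old resveratrol pools. At one depth they were 1 instead of 2 for age under the knockout label, 0 instead of 1 for resveratrol in wild type, and for the knockout label 2 instead of 3 in old control and 1 instead of 2 in old resveratrol pools. By DESeq2 they were 1 instead of 0 in young pools and 1 instead of 2 in old resveratrol pools. With the replicate block 1 instead of 2 passed in old resveratrol pools, Lhcgr being lost (-1.94, adjusted p = 0.0571). The block turned the age change of Cyp11a1 under the knockout label to 0.0325, and 5 of 18 libraries correlated best with their own number. With 1 library left out the counts were 1 to 2 for age under the knockout label, 0 to 0 for age in wild type, 0 to 0 for resveratrol in wild type and 0 to 0 under the knockout label, 0 to 1 in young, 0 to 3 in old control and 1 to 3 in old resveratrol pools, and 0 to 0 for both interactions.

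Of the 39 changes given singly, 7 turned sign in some fit, the above included. At one depth the resveratrol changes of Ptgfr and Scarb1 under the knockout label were -0.0262 and -0.00822. Leaving out 1 library moved the age change of Cyp11a1 under the knockout label between -0.40 and 0.79, and its change with the label in young pools between -1.06 and 0.16. It moved resveratrol changes near 0 to -0.31 to 0.19 (Star) and -0.0817 to 0.0426 (Hsd3b1) in wild type, and to -0.10 to 0.0956 (Star) and -0.13 to 0.23 (Scarb1) under the knockout label. Of 570 alternative values for the other 42 changes, 86 changed sign and 0 passed the threshold. With RLE scaling the median of all genes was 0.07 instead of 0.17 for age in wild type and 5.86e-05 instead of 0.10 for age under the knockout label, and it moved by less than 0.1 elsewhere.

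Genes past the threshold over the whole table changed more. For age in wild type they were 268, and 785 with no filter, 535 by DESeq2 and 60 to 120 with 1 library left out. For age under the knockout label they were 908, and 369 at one depth and 343 to 1397 with 1 library left out. For resveratrol in wild type they were 285, and 165 with RLE, 542 with no filter, 107 with the block, 7 at one depth, 1093 in old groups only, 824 by DESeq2 and 3 to 80 with 1 left out. For resveratrol under the knockout label they were 5, and 132 with no filter, 0 at one depth, 8 in old groups only, 19 by DESeq2 and 0 to 19 with 1 left out. For the knockout label they were 20 in young pools (215 with no filter, 130 by DESeq2, 8 to 118 with 1 left out), 678 in old control pools (174 at one depth, 1368 in old groups only, 1036 by DESeq2, 185 to 954 with 1 left out) and 187 in old resveratrol pools (616 with no filter, 44 at one depth, 330 in old groups only, 295 by DESeq2, 67 to 194 with 1 left out). The causes were not tested. For the interactions they were 24 for age (129 with no filter, 15 at one depth, 92 by DESeq2, 14 to 58 with 1 left out) and 28 for resveratrol (252, 4, 73 and 4 to 51, and 67 in old groups only). Depth limits Ptgfr and Lhcgr most, with 0 to 26 reads in each shallow library.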

Other observations

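Libraries of single metaphase II oocytes of the same series, 171 with a group, give the levels of these genes in CPM without TMM factors. Scarb1 had reads in all 171, with a median of 47.1 CPM (20.5 to 96.9). Runx2 had reads in 166, with a median of 3.54 CPM. Star, Cyp11a1 and Hsd3b1 had medians of 0.670, 0.918 and 0.429 CPM, with single oocytes of up to 69.5, 169 and 106 CPM. Lhcgr, Ptgfr, Nr5a1 and Sfrp4 had medians of 0 CPM and highest values of 6.19, 2.18, 3.49 and 65.6 CPM. The highest Ptgfr value was in a 6-month-old knockout-labelled resveratrol oocyte. The highest values of Star, Cyp11a1, Hsd3b1, Lhcgr, Nr5a1 and Sfrp4 were all in 6-month-old knockout-labelled control oocytes. The cells these reads came from were not tested. Cyp17a1 had 4 counts in all. Oocytes and granulosa pools were collected at different stages and are set side by side only as levels.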
